A study of Drosophila melanogaster with 18 samples.

Results

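The genes of the DNA replication machinery were followed by RNA-seq in BG3 cells, a Drosophila melanogaster cell line from the larval central nervous system. Of 36 listed genes for origin recognition, helicase loading and activation, DNA synthesis and nucleotide supply, 35 were found by symbol among the 16727 genes of the count files, and 34 were among the 10545 genes tested. Cells were analysed in 4 groups of 3 libraries each. Knockdown cells had been transfected with double-stranded RNA and harvested 72 h later: BEAF-32 RNAi cells, the double knockdown Cp190 RNAi Chro RNAi (here Cp190/Chro RNAi) and the double knockdown BEAF-32 RNAi Dref RNAi (here BEAF-32/Dref RNAi). WT cells were the reference, for which no control double-stranded RNA is described. BEAF-32, Cp190 and Chro (Chromator) are architectural proteins found at borders of topologically associating domains (TADs), and Dref is a transcription factor whose binding motif resembles that of BEAF-32. RNAi lowers a transcript without removing it, every group comes from the same cell line, and no source states whether replicates were grown separately, so that p-values measure only the spread between these libraries. All groups were compared with the same WT libraries.

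Replication starts at origins bound by the origin recognition complex, which with dup (the fly Cdt1) loads the ring of the MCM helicase, while geminin holds dup in check. The helicase is switched on by CDC45L and the GINS complex, DNA polymerase alpha and its primase lay down primers, the clamp loader places the sliding clamp PCNA, and the polymerases delta and epsilon extend the strands. Many of these genes are transcribed together as cells enter S phase. In Drosophila this is known to depend on E2F, and for genes such as PCNA and DNApol-alpha180 also on Dref, which binds the DNA replication-related element (DRE). In RNA from whole cultures, a lower share of cells in S phase and less RNA per cell cannot be told apart. The study also profiled the cell cycle of the knockdowns by flow cytometry, a measurement not analysed here.

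Many transcripts of the replication machinery were lower in the knockdowns that include BEAF-32. Fewer passed the test in Cp190/Chro RNAi cells, except when 1 library, BEAF-32 RNAi replicate 3, was left out. With all 12 libraries in the fit, 22 of 34 genes fell in BEAF-32 RNAi cells, 9 in Cp190/Chro RNAi cells and 22 in BEAF-32/Dref RNAi cells (edgeR, adjusted p under 0.05), beside 15.7%, 15.6% and 20.3% of all genes tested. Psf1 was the 1 gene that rose in each knockdown, beside 18.5%, 17.9% and 21.5% of all genes. The median log2 fold change of the 34 genes was -0.72, -0.43 and -0.65 in these knockdowns, and that of all genes was 0.07, 0.02 and 0.03. No fold reached far: the lowest log2 values were -1.07, -0.82 and -1.07. Leaving out any 1 library of WT or of Cp190/Chro RNAi brought the count of falls in Cp190/Chro RNAi cells to 2 to 5, and leaving out 1 of WT or BEAF-32/Dref RNAi brought that in BEAF-32/Dref RNAi cells to 12 to 16.

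One library bears on all of these counts. BEAF-32 RNAi replicate 3 differed from the other replicates of its group by a chi-square of 104.3 and 108.6 per gene, whereas other replicate pairs gave 2.21 to 7.13, and it had the most reads without a unique alignment (29.5%). In it 16 of the 34 replication genes (47.1%) were below 50% of the mean of replicates 1 and 2, beside 7.42% of the genes at 1 CPM or more. CPM is the count of a gene scaled to the total of its library, with TMM factors. The fit shares its estimate of the spread between groups, so this library also widened the errors of the other comparisons. Without it, in the remaining 11 libraries and 10395 genes, 28, 30 and 31 of the 34 genes fell in BEAF-32 RNAi, Cp190/Chro RNAi and BEAF-32/Dref RNAi cells, beside 22.9%, 28.4% and 30.3% of all genes. Psf1 alone rose in each, beside 23.2%, 29.2% and 30.8% of all genes. All genes that fell with 12 libraries (22, 9 and 22) also fell with 11. The medians of the 34 genes were then -0.49, -0.44 and -0.65. What set this library apart was not tested.

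In single libraries the median of the 34 genes relative to WT was -0.48, -0.51 and -1.29 in BEAF-32 RNAi cells, -0.40 to -0.46 in Cp190/Chro RNAi cells and -0.62 to -0.67 in BEAF-32/Dref RNAi cells, on the log2 scale, while that of all genes was -0.05 to -0.09 in the knockdown libraries. The replication genes together held 0.375%, 0.372% and 0.269% of the counts in BEAF-32 RNAi, 0.384 to 0.392% in Cp190/Chro RNAi and 0.335 to 0.349% in BEAF-32/Dref RNAi libraries, and 0.483 to 0.488% in WT libraries. All knockdown libraries lay below all WT libraries for 28, 30 and 32 of the 34 genes, beside 22.8%, 29.8% and 31.8% of all genes. Only Psf1 lay above in every library of each knockdown, as did 23.7%, 30.7% and 33% of all genes.

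The RNAi targets were checked in every library. BEAF-32 had 40.96, 44.56 and 74.79 CPM in BEAF-32 RNAi libraries, against 88.63, 92.69 and 90.27 CPM in WT libraries. All 3 were below WT, and replicate 3, the library that stands apart, was the nearest to it. The log2 fold change of BEAF-32 was -0.77 (edgeR adjusted p = 0.00777) and, without replicate 3, -1.08. Chro fell by 0.75 and Cp190 by 0.54 on the log2 scale in Cp190/Chro RNAi cells. Dref fell by 0.67 and BEAF-32 by 0.72 in BEAF-32/Dref RNAi cells.

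Genes that were not targeted were lower too. In BEAF-32 RNAi cells Cp190, Chro and Dref fell by 0.54, 0.86 and 0.72, and by 0.39, 0.57 and 0.51 without replicate 3. In BEAF-32/Dref RNAi cells Cp190 and Chro fell by 0.56 and 1.01. In Cp190/Chro RNAi cells Dref fell by 0.50, while BEAF-32 had -0.31 (edgeR adjusted p = 0.206), which passed without BEAF-32 RNAi replicate 3 (adjusted p = 0.000126). Their part in the results was not tested.

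Library totals were 7178403 to 12202598 counts over genes. In WT cells the neuron markers elav and Syx1A (77.5 and 63.5 CPM), the glia markers nrv2, moody and repo (609, 230 and 60.3 CPM), srp of the hemocyte list (804 CPM) and Mef2 of the muscle list (146 CPM) were all present, while the 5 fat body markers summed to at most 1.86 CPM in any library and He had no count. The 7 neuron markers summed to 133.7 to 184.7 CPM in BEAF-32 RNAi libraries and at least 140 CPM in WT libraries. Their sums were 184.5 to 195.9 CPM with Cp190/Chro RNAi and 190.2 to 201.6 CPM with BEAF-32/Dref RNAi, above every WT library. With 12 libraries elav (0.47 and 0.46) and Syx1A (0.33 and 0.43) were called higher in these double knockdowns. Neither was called in BEAF-32 RNAi cells (0.20 and -0.06). The 7 hemocyte markers summed to 572 to 810 CPM in knockdown libraries and 792 to 823 CPM in WT libraries. The 6 muscle markers summed to 120 to 135 CPM and 144 to 152 CPM. Srp and Mef2 carried most of the hemocyte and muscle sums, which hid changes of markers at 4.29 CPM or less in WT cells. In the fit of 12 libraries BEAF-32 RNAi cells had log2 fold changes of 3.26 for eater, 6.74 for lz and -2.96 for PPO1. Lz had 5.18 in Cp190/Chro RNAi cells, and PPO1 and srp had -1.09 and -0.41 in BEAF-32/Dref RNAi cells. The folds of lz rest on 54 counts in total, with 0 CPM in WT cells. Mhc had 4.62, 3.85 and 3.57 in the 3 knockdowns, and wupA 3.64 and 4.31 in the double knockdowns. These all passed the test. Mef2 was called lower in each knockdown (-0.23, -0.27 and -0.27). The 6 glia markers summed to 383 to 650 CPM in knockdown libraries and 933 to 960 CPM in WT libraries, a difference carried by nrv2, with log2 fold changes of -1.46, -1.51 and -1.69 in BEAF-32 RNAi, Cp190/Chro RNAi and BEAF-32/Dref RNAi cells. Moody, repo and Gs2 averaged 304, 78.7 and 39.8 CPM in Cp190/Chro RNAi cells, against 230, 60.3 and 17.6 CPM in WT cells. They were called higher there without BEAF-32 RNAi replicate 3. In BEAF-32 RNAi cells that fit called moody higher (0.35) but repo and Gs2 lower (-0.82 and -1.631). It called repo and Gs2, but not moody, higher in BEAF-32/Dref RNAi cells. With 12 libraries Eaat1 was called lower in each knockdown (-1.654, -1.449 and -1.096).

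The 7 neuroblast markers summed to 21.9 to 84.2 CPM in knockdown libraries and 41.9 to 42.5 CPM in WT libraries, with opposite changes inside the sum. Mira averaged 2.93, 2.94 and 1.91 CPM in the 3 knockdowns and 37.4 CPM in WT cells, with log2 fold changes of -3.64, -3.66 and -4.28. Insc averaged 32.9, 12.7 and 19.7 CPM in the knockdowns and 2.27 CPM in WT cells. Pros averaged 11.04, 7.67 and 8.78 CPM in the knockdowns and 2.08 CPM in WT cells. Both were called higher in each knockdown. In BEAF-32 RNAi cells insc had 3.83 with 12 libraries and 2.83 without BEAF-32 RNAi replicate 3. With 12 libraries dpn, with 42 counts in total, was called higher in BEAF-32 RNAi cells only (2.23), and ase in no knockdown. The part of these markers in the results was not tested.

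Promoters of replication genes are shown because Dref and BEAF-32, of the proteins knocked down, recognise short DNA motifs, and E2F is the known regulator of these genes. Windows of 300 bases, from 250 before to 50 after the 5′-most RefSeq start (dm6), were searched on both strands for TATCGATA (the DRE, which contains a BEAF-32 core site on each strand), for CGATA (the BEAF-32 core site) and for TTTCGCGC or TTTGGCGC (E2F). Capitals mark the motifs, which stand as their reverse complements (TATCG, GCGCCAAA) where they lie on the other strand. Each sequence is the shortest stretch holding the motifs of its window, with 12 bases on either side, and reads 5′ to 3′ in the direction of its gene.
DNApol-alpha180, chr3R:21671741-21671959, minus strand: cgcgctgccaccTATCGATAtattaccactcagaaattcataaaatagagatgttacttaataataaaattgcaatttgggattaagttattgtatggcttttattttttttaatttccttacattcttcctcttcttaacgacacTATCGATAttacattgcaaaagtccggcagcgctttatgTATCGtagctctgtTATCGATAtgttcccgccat
DNApol-alpha73, chr3R:27239059-27239166, plus strand: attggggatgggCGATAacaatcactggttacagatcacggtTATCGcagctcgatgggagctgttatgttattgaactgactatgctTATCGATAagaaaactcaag
Gnf1, chr3R:4906544-4906575, plus strand: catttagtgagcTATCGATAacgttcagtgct
Psf3, chrX:10385889-10385920, minus strand: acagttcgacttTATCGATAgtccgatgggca
Psf1, chr3L:1247712-1247769, minus strand: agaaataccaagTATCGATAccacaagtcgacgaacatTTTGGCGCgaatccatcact
Mcm5, chr3R:10788469-10788517, plus strand: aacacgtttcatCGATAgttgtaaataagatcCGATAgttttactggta
DNApol-epsilon, chr3R:23348029-23348060, plus strand: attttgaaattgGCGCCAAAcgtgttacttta
RnrL, chr2L:10327922-10327953, minus strand: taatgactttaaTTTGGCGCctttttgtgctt

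DNApol-alpha180 carried 3 DREs, at -197, -63 and -10 from its start (counted as 1, with no 0), and Gnf1 and Psf3 carried 1 each, at -66 and -47. Psf1, the gene that rose, had a DRE at -80 and an E2F site at -54. DNApol-epsilon and RnrL had an E2F site and no core site. A DRE was present in 11 of the 35 replication gene promoters (31.4%), against 11.7% of 10494 tested genes with a position. An E2F site was present in 12 (34.3%), against 3.8%, a core site in 20 (57.1%), against 50.8%, and at least 2 core sites, which overlap within each DRE, in 42.9%, against 28.7%. A match is a description of these letters and not a bound site.

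**Figure D1:**
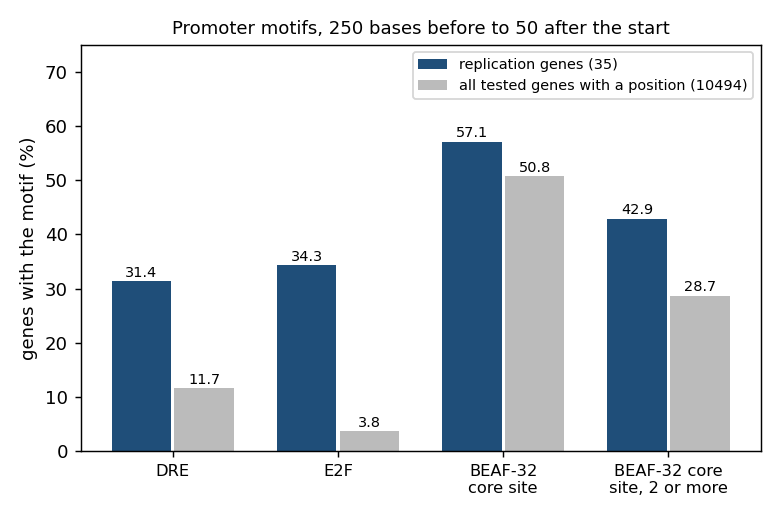
Bars give the percentage of promoters with each motif, in 35 replication genes (dark) and in 10494 tested genes with a position (grey). The DRE (31.4% against 11.7%) and the E2F site (34.3% against 3.8%) are farther apart between the gene sets than the BEAF-32 core site (57.1% against 50.8%).

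Whether fold changes differ between genes with and without a DRE was not tested. The 10 tested genes with a DRE had median log2 fold changes of -0.78, -0.49 and -0.73 in BEAF-32 RNAi, Cp190/Chro RNAi and BEAF-32/Dref RNAi cells. The 24 without had -0.70, -0.42 and -0.62. Of the genes with a DRE 7, 4 and 7 fell, and 8, 8 and 9 without BEAF-32 RNAi replicate 3. Of those without a DRE 15, 5 and 15 fell, and 20, 22 and 22 without that library. The shares of all genes are those given above for each fit. For the 11 genes with an E2F site the medians were -0.65, -0.34 and -0.62, and for the 23 without, -0.74, -0.46 and -0.70. Among all tested genes, those with a DRE had medians of -0.07, -0.10 and -0.11, and those without, 0.11, 0.05 and 0.07.

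Origin recognition opens replication. All 5 tested subunits fell in both knockdowns that include BEAF-32, and 2 of them in Cp190/Chro RNAi cells. With BEAF-32 RNAi replicate 3 left out, all 5 fell in each knockdown. Orc1, an ATPase subunit, had 64.3, 70.7 and 83.5 CPM in BEAF-32 RNAi, 74.3, 64.7 and 70.1 CPM in Cp190/Chro RNAi and 58.9, 63.3 and 53.8 CPM in BEAF-32/Dref RNAi libraries, against 90.1, 93.9 and 88.9 CPM in WT libraries. Every knockdown library was below every WT library, and BEAF-32 RNAi replicate 3 was the highest of its group. The log2 fold changes of Orc1 were -0.32 ± 0.10, -0.38 ± 0.10 and -0.63 ± 0.10 (SE, edgeR adjusted p = 0.0316, 0.0144 and 0.000733). The first of these calls was lost under 7 of the alternative settings and had a log2 value of -0.43 ± 0.08 without BEAF-32 RNAi replicate 3.

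Orc5 had 26.5, 28.9 and 14.4 CPM in BEAF-32 RNAi, 28.0, 26.6 and 28.0 CPM in Cp190/Chro RNAi and 24.4, 29.5 and 26.7 CPM in BEAF-32/Dref RNAi libraries, against 42.7, 45.2 and 44.2 CPM in WT libraries. The groups did not overlap with WT. Its log2 fold changes were -0.91 ± 0.19, -0.68 ± 0.19 and -0.72 ± 0.19 (SE, edgeR adjusted p = 0.00414, 0.0175 and 0.0112). Orc2, Orc4 and Orc6 fell by 0.88, 0.73 and 0.64 in BEAF-32 RNAi cells and by 0.73, 0.54 and 0.62 in BEAF-32/Dref RNAi cells. In Cp190/Chro RNAi cells they had -0.39, -0.34 and -0.44, which passed the test only without BEAF-32 RNAi replicate 3. The remaining subunit, lat (Orc3), had 0 counts in all 12 libraries. All of its exon bases (100%) overlap another gene on the same strand, CG34315, and HTSeq sets aside reads that fit more than 1 gene, so its level was not measured.

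Of the 2 licensing genes, geminin was called in 2 of the comparisons with WT. Geminin, the inhibitor of dup, fell by 0.70 in the BEAF-32 RNAi cells and by 0.58 in BEAF-32/Dref RNAi cells and had -0.40 in Cp190/Chro RNAi cells. Dup had -0.79, -0.29 and -0.54 in BEAF-32 RNAi, Cp190/Chro RNAi and BEAF-32/Dref RNAi cells, and none of these passed the test with 12 libraries. Without the third BEAF-32 RNAi library, both genes fell in each knockdown, geminin by 0.50, 0.40 and 0.59 and dup by 0.43, 0.29 and 0.55.

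The MCM helicase, the ring of 6 subunits that unwinds DNA, fell in 5 subunits in BEAF-32 RNAi, 2 in Cp190/Chro RNAi and 4 in BEAF-32/Dref RNAi cells. Mcm2 had 192.9, 184.9 and 77.5 CPM in BEAF-32 RNAi, 195.9, 192.5 and 198.8 CPM in Cp190/Chro RNAi and 159.4, 169.5 and 166.2 CPM in BEAF-32/Dref RNAi libraries, against 308, 320.2 and 316.5 CPM in WT libraries. The groups did not overlap with WT. Log2 fold changes of Mcm2 were -1.05 ± 0.24, -0.69 ± 0.24 and -0.93 ± 0.24 (SE, edgeR adjusted p = 0.00689, 0.0463 and 0.00995). In the fit of 11 libraries, they were -0.74, -0.69 and -0.94, each with an SE of 0.05.

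Mcm6 had 178.9, 180.5 and 63.4 CPM in BEAF-32 RNAi, 161.5, 164.2 and 163.3 CPM in Cp190/Chro RNAi and 143, 139.4 and 134.9 CPM in BEAF-32/Dref RNAi libraries, against 276.2, 286.6 and 300.5 CPM in WT libraries. All knockdown libraries were lower than all WT libraries. The log2 fold changes were -1.03 ± 0.28, -0.82 ± 0.28 and -1.05 ± 0.28 (SE, edgeR adjusted p = 0.0152, 0.0393 and 0.011). Mcm5 had 121.1, 129 and 40.5 CPM in BEAF-32 RNAi, 152.6, 141 and 146.2 CPM in Cp190/Chro RNAi and 116.5, 122.2 and 118.8 CPM in BEAF-32/Dref RNAi libraries, against 204.3, 203.2 and 198.8 CPM in WT libraries. Mcm5 did not overlap with WT in any knockdown, but with 12 libraries only BEAF-32 RNAi passed the test (-1.06 ± 0.30, edgeR adjusted p = 0.0176).

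Mcm3, dpa (Mcm4) and Mcm7 complete the ring. Dpa and Mcm7 fell by 0.74 and 0.89 in BEAF-32 RNAi and by 0.66 and 0.70 in BEAF-32/Dref RNAi cells. Mcm3 had -0.75, -0.44 and -0.73 in BEAF-32 RNAi, Cp190/Chro RNAi and BEAF-32/Dref RNAi cells, none of which passed. On 11 libraries, all 6 subunits fell in every knockdown, with medians of -0.65, -0.48 and -0.75. For Mcm7, 81.7% of the exon bases overlap a gene on the other strand, and no source used here says whether the kit kept strand, so reads of both genes may not be separated.

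The factors that switch the helicase on included the one gene that rose. Psf1, a GINS subunit, had 56.2, 62.6 and 62.4 CPM in BEAF-32 RNAi, 64.8, 64.8 and 67.3 CPM in Cp190/Chro RNAi and 69.5, 75.02 and 65.4 CPM in BEAF-32/Dref RNAi libraries, against 48.2, 49.6 and 52.6 CPM in WT libraries. Every knockdown library was above every WT library. Log2 fold changes of Psf1 were 0.27 ± 0.08, 0.39 ± 0.08 and 0.48 ± 0.08 (SE, edgeR adjusted p = 0.0234, 0.00372 and 0.000818). The rise in BEAF-32 RNAi was not called without WT replicate 1 or 2 or BEAF-32 RNAi replicate 2, where the adjusted p was 0.0858, 0.0722 and 0.0596.

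Psf3, another GINS subunit, had 19.0, 19.96 and 20.6 CPM in BEAF-32 RNAi, 19.7, 19.4 and 18.3 CPM in Cp190/Chro RNAi and 18.2, 18.0 and 21.0 CPM in BEAF-32/Dref RNAi libraries, against 34.2, 31.4 and 29.0 CPM in WT libraries. All 9 knockdown libraries lay in a narrow band below WT, BEAF-32 RNAi replicate 3 among them. Its log2 fold changes were -0.67 ± 0.10, -0.72 ± 0.10 and -0.72 ± 0.10 (SE, edgeR adjusted p = 0.000688, 0.000403 and 0.000324). Of its exon bases 34.9% overlap a gene on the other strand.

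The other GINS subunits also fell in part. Sld5 fell by 0.76 in the BEAF-32 RNAi cells and by 0.64 in BEAF-32/Dref RNAi cells and had -0.30 in Cp190/Chro RNAi cells, and Psf2 fell by 0.55 in Cp190/Chro RNAi and by 0.67 in BEAF-32/Dref RNAi cells. Its BEAF-32 RNAi libraries overlapped with WT (-0.42). CDC45L, which joins MCM and GINS in the active helicase, fell by 0.74 in the BEAF-32 RNAi cells and by 0.96 in BEAF-32/Dref RNAi cells and had -0.55 in Cp190/Chro RNAi cells. Mcm10, an initiation factor, had -0.43, -0.21 and -0.42 and passed in none with 12 libraries. Without BEAF-32 RNAi replicate 3 it fell in both double knockdowns but not in BEAF-32 RNAi (-0.14 ± 0.08).

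**Figure D2:**
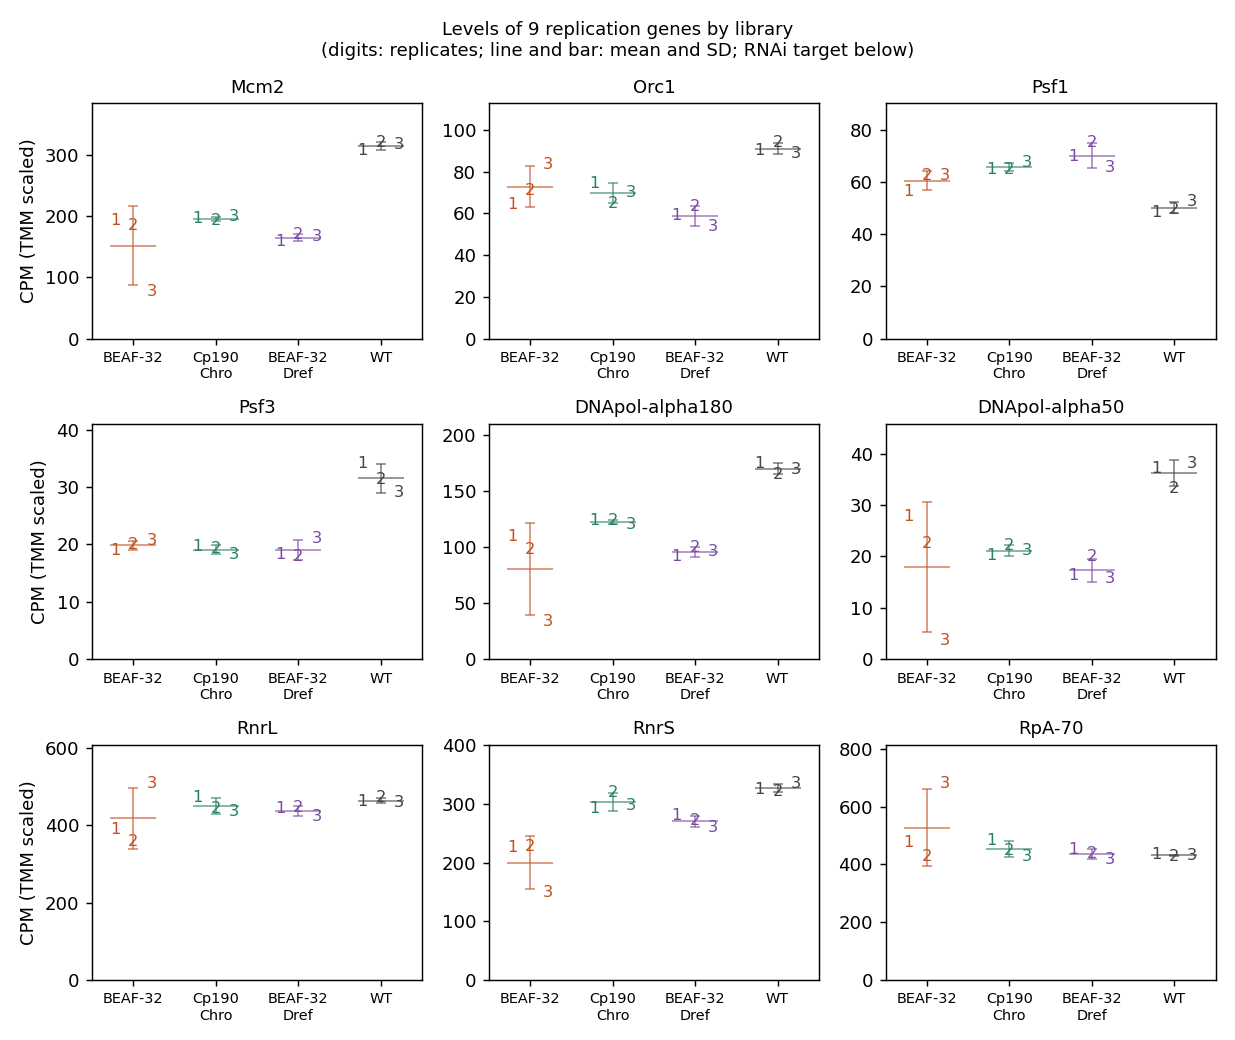
CPM is plotted on a linear axis from 0 for 9 replication genes, with each digit marking a replicate and the line and bar the mean and SD of 3 libraries; columns are named by RNAi target, with WT at the right. Mcm2, Orc1, Psf3, DNApol-alpha180 and DNApol-alpha50 lie below WT in all knockdown libraries, Psf1 lies above, and RpA-70 departs from the WT level mainly in BEAF-32 RNAi replicate 3 (679.8 CPM).

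Of the 4 polymerase alpha and primase genes, 1 passed in BEAF-32 RNAi, 0 in Cp190/Chro RNAi and 1 in BEAF-32/Dref RNAi cells (edgeR), and 3, 3 and 4 did without BEAF-32 RNAi replicate 3. DNApol-alpha180, the catalytic subunit, had 109.7, 98.3 and 33.6 CPM in BEAF-32 RNAi, 123.4, 124.2 and 120.7 CPM in Cp190/Chro RNAi and 91.4, 99.8 and 95.8 CPM in BEAF-32/Dref RNAi libraries, against 175, 165.1 and 169.5 CPM in WT libraries. The groups did not overlap with WT. Log2 fold changes were -1.07 ± 0.30, -0.47 ± 0.29 and -0.83 ± 0.29 (SE, edgeR adjusted p = 0.0168, 0.234 and 0.041), and -0.71 ± 0.06, -0.47 ± 0.05 and -0.84 ± 0.06 without BEAF-32 RNAi replicate 3.

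DNApol-alpha50, the primase subunit that makes the primer, had 27.7, 22.5 and 3.70 CPM in BEAF-32 RNAi, 20.1, 22.2 and 21.2 CPM in Cp190/Chro RNAi and 16.3, 19.9 and 15.7 CPM in BEAF-32/Dref RNAi libraries, against 37.2, 33.3 and 38.2 CPM in WT libraries. The value of 3.70 CPM, from 26 counts, was 0.147 of the mean of the other BEAF-32 RNAi replicates. No knockdown library overlapped with WT, and yet none of the calls was made with 12 libraries (-0.99 ± 0.43, -0.78 ± 0.42 and -1.07 ± 0.43). Without that library the values were -0.53 ± 0.12, -0.78 ± 0.11 and -1.08 ± 0.11, and each passed (edgeR adjusted p = 0.000167, 3.58e-09 and 6.4e-13).

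DNApol-alpha73, the other polymerase subunit, had -0.92, -0.51 and -0.83, none of them called, and 0.176 of the mean of replicates 1 and 2 in BEAF-32 RNAi replicate 3. DNApol-alpha60, the large primase subunit, had -0.39, -0.13 and -0.51, also not called, and without that library it fell in BEAF-32/Dref RNAi cells alone (-0.52 ± 0.09). DNApol-epsilon, on the leading strand, had 110.2, 111.3 and 54.3 CPM in BEAF-32 RNAi, 140.4, 128.3 and 138.6 CPM in Cp190/Chro RNAi and 108.5, 117.2 and 110.7 CPM in BEAF-32/Dref RNAi libraries, against 187.4, 187.1 and 180.7 CPM in WT libraries. All knockdown libraries were below WT, and the log2 fold changes were -1.005 ± 0.20, -0.45 ± 0.20 and -0.72 ± 0.20 (SE, edgeR adjusted p = 0.00305, 0.102 and 0.0132). DNApol-delta, on the lagging strand, fell by 0.59 in the BEAF-32 RNAi cells and by 0.55 in BEAF-32/Dref RNAi cells and had -0.41 in Cp190/Chro RNAi cells.

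Of the 4 clamp loader genes, 2, 2 and 3 fell in the 3 knockdowns, and 3, 4 and 4 without BEAF-32 RNAi replicate 3. Gnf1, the large subunit of the loader, had 177.9, 176.9 and 83.0 CPM in BEAF-32 RNAi, 160.8, 148.8 and 156.2 CPM in Cp190/Chro RNAi and 134.2, 121.6 and 130.9 CPM in BEAF-32/Dref RNAi libraries, against 251.7, 253.5 and 254 CPM in WT libraries. None overlapped with WT. Log2 fold changes of Gnf1 were -0.79 ± 0.21, -0.70 ± 0.21 and -0.97 ± 0.21 (SE, edgeR adjusted p = 0.0144, 0.0246 and 0.00406).

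PCNA, the clamp, is the RefSeq symbol of the listed gene mus209, which the files do not carry under that name, so its values stand beside those of the 34 genes and are not counted with them. It had 213.7, 213.1 and 204.9 CPM in BEAF-32 RNAi, 269.6, 279.9 and 251.8 CPM in Cp190/Chro RNAi and 250.4, 253.5 and 255.3 CPM in BEAF-32/Dref RNAi libraries, against 249.5, 246.4 and 243.3 CPM in WT libraries. BEAF-32 RNAi libraries were all below WT and those of both double knockdowns all above. PCNA fell by 0.23 ± 0.06 in BEAF-32 RNAi cells (SE, edgeR adjusted p = 0.0177) and had log2 fold changes of 0.12 ± 0.06 and 0.04 ± 0.06 in the double knockdowns (edgeR adjusted p = 0.176 and 0.65). Without BEAF-32 RNAi replicate 3 it was called higher in Cp190/Chro RNAi cells (0.11, edgeR adjusted p = 0.0358). The small loader subunits RfC3, RfC4 and RfC38 had log2 fold changes of -0.37, -0.32 and -0.62 in cells with BEAF-32 RNAi. They had -0.60, -0.33 and -0.41 in Cp190/Chro RNAi and -0.64, -0.39 and -0.61 in BEAF-32/Dref RNAi cells. Of these, RfC38 was called in BEAF-32 RNAi, RfC3 in Cp190/Chro RNAi and both in BEAF-32/Dref RNAi cells.

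With 12 libraries, 1 of the 3 genes of nucleotide supply and single-strand binding was called, RnrS in BEAF-32 RNAi cells. RnrL, the large subunit of ribonucleotide reductase, had 387.8, 358.6 and 507.5 CPM in BEAF-32 RNAi, 473, 442.3 and 435 CPM in Cp190/Chro RNAi and 442.4, 446.9 and 422 CPM in BEAF-32/Dref RNAi libraries, against 461.3, 471 and 458.5 CPM in WT libraries. The first 2 groups overlapped with WT, and the log2 fold changes of -0.15 ± 0.11, -0.04 ± 0.11 and -0.08 ± 0.11 passed in none (edgeR adjusted p = 0.307, 0.789 and 0.557). Without BEAF-32 RNAi replicate 3 RnrL fell in BEAF-32 RNAi cells (-0.31 ± 0.05).

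RnrS, the small subunit of the same enzyme, had 224.9, 226.6 and 148.2 CPM in BEAF-32 RNAi, 291.7, 319.8 and 297.2 CPM in Cp190/Chro RNAi and 279.6, 271.6 and 260.6 CPM in BEAF-32/Dref RNAi libraries, against 325.2, 320.7 and 334.4 CPM in WT libraries. BEAF-32 RNAi libraries were the lowest, and no knockdown library reached the WT range. RnrS fell by 0.71 ± 0.13 in BEAF-32 RNAi cells (SE, edgeR adjusted p = 0.00205) and had -0.11 ± 0.13 and -0.27 ± 0.13 in the double knockdowns (edgeR adjusted p = 0.544 and 0.116). In the fit without BEAF-32 RNAi replicate 3, RnrS fell in both double knockdowns, by 0.11 and 0.28 (edgeR adjusted p = 0.0307 and 5.26e-07). RpA-70, the large subunit of the single-strand binding protein RPA, had 476.3, 426.9 and 679.8 CPM in BEAF-32 RNAi, 482.5, 447 and 428 CPM in Cp190/Chro RNAi and 452.9, 439.6 and 416.3 CPM in BEAF-32/Dref RNAi libraries, against 433.7, 429.2 and 432.2 CPM in WT libraries. All 3 knockdowns overlapped with WT. RpA-70 had log2 fold changes of 0.29, 0.07 and 0.02 and passed in no comparison with WT, with or without BEAF-32 RNAi replicate 3. Its start lies 519 bases from that of Mcm2, on the opposite strand, and Mcm2 fell in each knockdown.

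Strand maturation ended the order. DNA-ligI, which seals the Okazaki fragments, had 70.1, 65.1 and 44.8 CPM in BEAF-32 RNAi, 66.0, 62.6 and 64.2 CPM in Cp190/Chro RNAi and 53.9, 62.02 and 57.4 CPM in BEAF-32/Dref RNAi libraries, against 94.4, 100.1 and 92.9 CPM in WT libraries. The groups did not overlap with WT. The log2 fold changes were -0.67 ± 0.13, -0.58 ± 0.13 and -0.73 ± 0.13 (SE, edgeR adjusted p = 0.00305, 0.00708 and 0.00149). Fen1, the nuclease that trims the fragments, fell by 0.69 in the BEAF-32 RNAi cells and by 0.50 in BEAF-32/Dref RNAi cells and had -0.43 in Cp190/Chro RNAi cells.

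**Figure D3:**
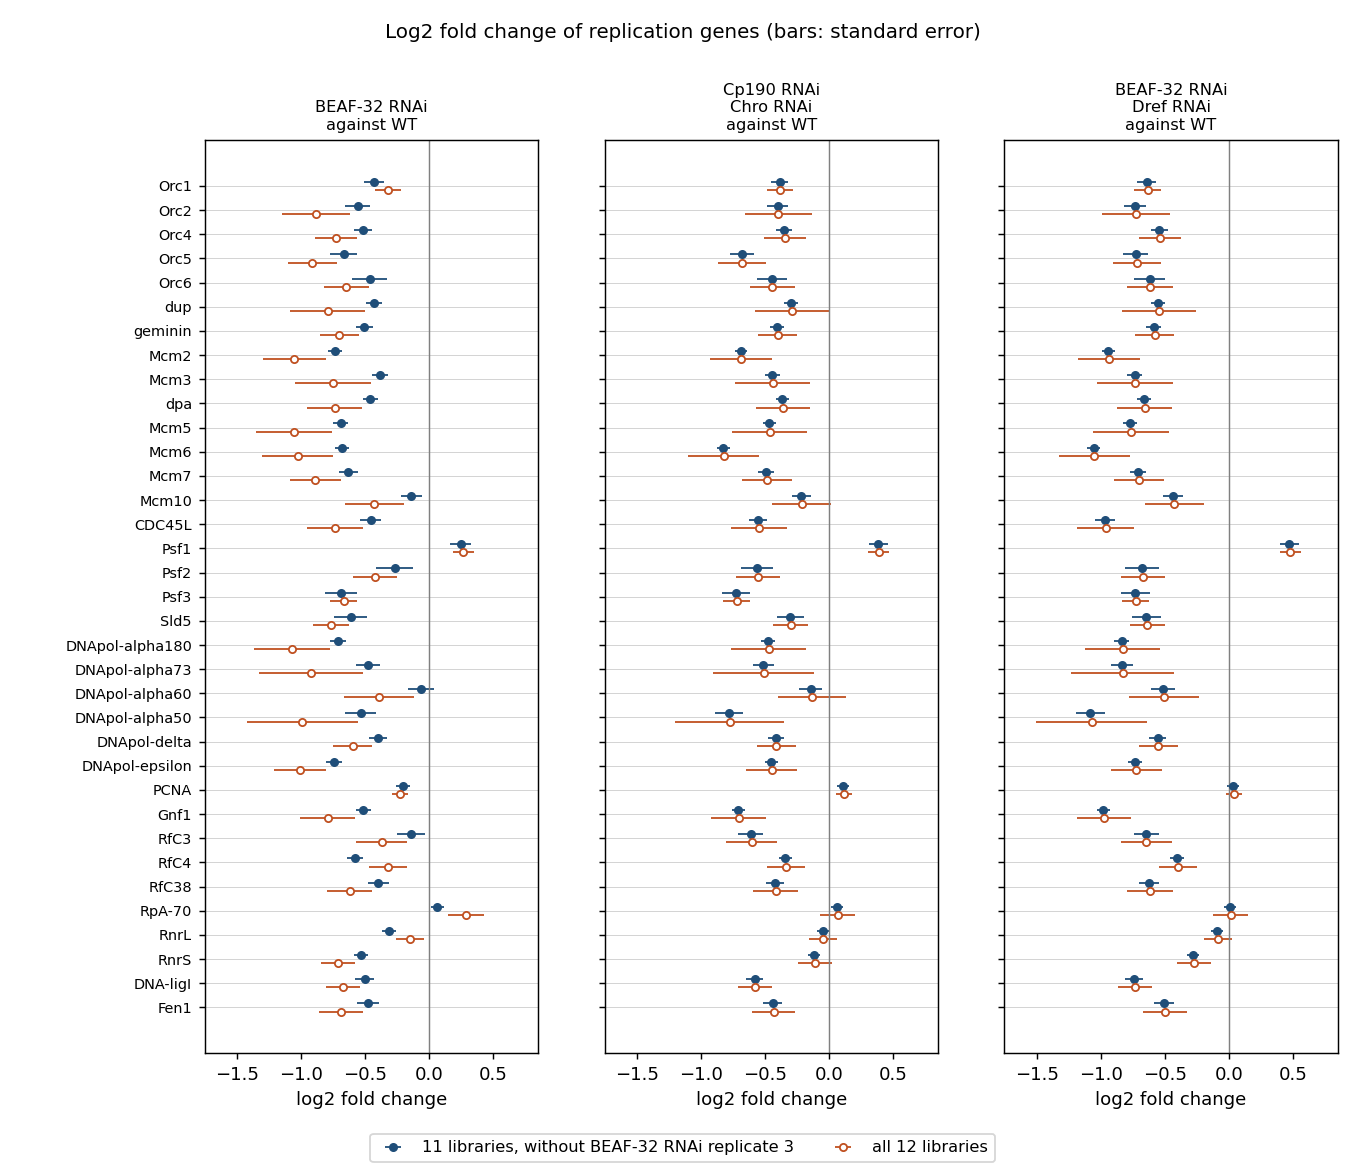
Points give the log2 fold change of each gene against WT in 1 knockdown per panel and bars its standard error, for all 12 libraries (open) and for the 11 without BEAF-32 RNAi replicate 3 (filled). Points of the double knockdowns hardly move between the fits while their bars shorten, and in BEAF-32 RNAi the median shifts to -0.49 from the -0.72 of 12 libraries.

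Across knockdowns, 8 genes were called in all 3 comparisons with WT (Mcm2, Mcm6, Orc1, Orc5, Psf3, Gnf1 and DNA-ligI lower and Psf1 higher), 15 in exactly 2, 2 in 1 and 9 in 0, and 0 in opposite directions. Of all genes tested, 9.97% were lower and 11.4% higher in all 3 comparisons, which share their WT libraries. Without BEAF-32 RNAi replicate 3, 27 of 34 genes were lower in all 3, beside 16.1% of all genes. The exceptions were Psf1, Psf2, Mcm10, DNApol-alpha60, RfC3, RnrL and RpA-70.

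Knockdowns were also set against each other to ask whether these genes differed with RNAi against Dref added, or with RNAi against other architectural proteins. Dref itself had 143.9, 146 and 85.3 CPM in BEAF-32 RNAi and 128.3, 133.7 and 127.8 CPM in BEAF-32/Dref RNAi libraries. With all 12 libraries its log2 fold change between them was 0.05 (edgeR adjusted p = 0.89). Between Cp190/Chro RNAi and BEAF-32 RNAi cells Cp190 had 0.005 and Chro 0.11 (edgeR adjusted p = 0.99 and 0.828). Without BEAF-32 RNAi replicate 3, Dref had -0.68 against WT after BEAF-32/Dref RNAi, beside -0.51 after BEAF-32 RNAi alone. Cp190 and Chro had -0.54 and -0.75 after Cp190/Chro RNAi, beside -0.39 and -0.57. Of the 4 RNAi targets, that fit called 3 lower and 1 higher with BEAF-32/Dref RNAi than with BEAF-32 RNAi. For Cp190/Chro RNAi against BEAF-32 RNAi it called 2 lower and 1 higher. With 12 libraries, 0 of 34 genes differed between BEAF-32/Dref RNAi and BEAF-32 RNAi cells (edgeR), beside 3.03% higher and 2.7% lower among all genes. At an unadjusted p under 0.05, 2 were higher and 1 lower, and DESeq2 called 1 higher. Between Cp190/Chro RNAi and BEAF-32 RNAi cells only RnrS was called (0.60 ± 0.13, edgeR adjusted p = 0.0209), beside 3.65% higher and 3.25% lower among all genes, and this call was lost without any 1 of the Cp190/Chro RNAi libraries. PCNA was also higher in both double knockdowns than in BEAF-32 RNAi cells, by 0.34 ± 0.06 with Cp190 and Chro and by 0.27 ± 0.06 with Dref (edgeR adjusted p = 0.0093 and 0.0319). Between BEAF-32/Dref RNAi and Cp190/Chro RNAi cells 0 genes were called, as were 0% of all genes, with 2 lower and 0 higher at an unadjusted p under 0.05 and 0 by DESeq2.

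These comparisons changed most without BEAF-32 RNAi replicate 3. Between BEAF-32/Dref RNAi and BEAF-32 RNAi cells 15 genes were then lower and 4 higher, beside 21.5% and 21.4% of all genes. The lowest were DNApol-alpha50, CDC45L, RfC3 and Gnf1, with -0.55, -0.51, -0.50 and -0.47, and the 4 higher were RnrS, Psf1, RnrL and RfC4, with 0.25, 0.23, 0.22 and 0.18. Between BEAF-32/Dref RNAi and Cp190/Chro RNAi cells 20 were lower and 0 higher, beside 6.91% and 5.9% of all genes, led by CDC45L (-0.41) and followed by DNApol-alpha60 (-0.38) and DNApol-alpha180 (-0.36). Between Cp190/Chro RNAi and BEAF-32 RNAi cells 7 were higher, RnrS most (0.42), and 3 lower, RfC3 (-0.47), Gnf1 (-0.20) and Mcm6 (-0.14), beside 20.1% and 17.8% of all genes. BEAF-32 RNAi then rests on 2 libraries.

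Per kilobase of exon, levels ranged widely among the replication genes. In WT cells PCNA, RnrS, RpA-70, RnrL, geminin and RfC4 were the highest, at 230 ± 2.93, 205 ± 4.37, 202 ± 1.09, 180 ± 2.53, 173 ± 13.1 and 167 ± 8.31 CPM per kb (SD, n = 3). Mcm2 and Mcm6 followed at 109 ± 2.14 and 103 ± 4.38, and Psf3 was the lowest at 13.2 ± 1.09. Neighbours such as RnrS and RpA-70, or geminin and RfC4, lay within about their spread. For the 4 highest genes the log2 fold changes in the double knockdowns lay between -0.27 and 0.12. Geminin, next in level, had -0.40 and -0.58 there, and RfC4 had -0.33 and -0.39. In BEAF-32 RNAi cells PCNA, RnrS, RpA-70, RnrL, geminin and RfC4 had -0.23, -0.71, 0.29, -0.15, -0.70 and -0.32.

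Other genes of the pathway were counted from lists of textbook genes, to be read beside the shares of all genes that fell (15.7%, 15.6% and 20.3% with 12 libraries, and 22.9%, 28.4% and 30.3% with 11). Of 28 other replication and chromatin assembly genes, 15, 7 and 17 fell and 0 rose in BEAF-32 RNAi, Cp190/Chro RNAi and BEAF-32/Dref RNAi cells, with medians of -0.55, -0.41 and -0.60. Top2, which relieves DNA tangles, fell by 1.15, 0.92 and 1.19, CG16838 (the fly Elg1) by 0.74, 0.47 and 0.61, and chif, the partner of the Cdc7 kinase, by 0.42, 0.58 and 0.67. Caf1-105, which places histones on new DNA, fell by 0.67 in BEAF-32 RNAi cells and had -0.27 and -0.34 in the double knockdowns. Without BEAF-32 RNAi replicate 3, 18, 23 and 25 fell and 1 rose in each.

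The list for control of S phase entry, with E2F and Myb-MuvB genes, had 9, 8 and 12 of 18 genes lower and 0 higher. The most strongly changed was dap, an inhibitor of Cyclin E-Cdk2, at 54.3 ± 20.5, 73.1 ± 4.04 and 58.2 ± 1.02 CPM in the 3 knockdowns, against 176.6 ± 5.50 CPM in WT (SD, n = 3 each). Its log2 fold changes were -1.69, -1.27 and -1.60. Rbf2 fell by 0.97, 0.98 and 1.23, Myb by 0.74, 0.77 and 0.93, and ago, which targets Cyclin E for breakdown, by 0.25, 0.24 and 0.41. The kinase gene cdc2c (Cdk2) fell by 0.92, 0.67 and 0.88, and Cdk4 fell by 0.36 in BEAF-32 RNAi and by 0.23 in BEAF-32/Dref RNAi cells and had -0.20 in Cp190/Chro RNAi cells. In the fit of 11 libraries 14, 15 and 16 of the list fell, and CycE was higher in BEAF-32 RNAi cells (0.44, edgeR adjusted p = 1.06e-05). In the same fit CycE was lower in BEAF-32/Dref RNAi cells (-0.41, edgeR adjusted p = 1.04e-05) and had -0.10 in Cp190/Chro RNAi cells, which was not called.

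Checkpoint genes split. Of 8 tested, 4 fell in each knockdown, among them lok (Chk2), by 1.01, 0.99 and 1.48, grp (Chk1), by 0.44, 0.65 and 0.90, and tefu (ATM), by 0.75, 0.66 and 0.82. P53 rose in each, by 1.73, 0.94 and 1.25, to 152 ± 85.8, 87.6 ± 5.75 and 109 ± 2.80 CPM, against 45.7 ± 3.55 CPM in WT, and Hus1-like rose by 1.15 in BEAF-32 RNAi cells and had 0.38 and 0.50 in the double knockdowns. On leaving out BEAF-32 RNAi replicate 3, the counts were 5, 4 and 4 lower and 2, 1 and 2 higher, and p53 had 1.17, 0.94 and 1.25. Of 35 mitosis genes, 17, 18 and 29 fell and 0 rose, with medians of -0.74, -0.76 and -0.98. Leaving out BEAF-32 RNAi replicate 3 gave 27, 33 and 32 falls and 0, 1 and 1 rises, with medians of -0.38, -0.77 and -0.98. Examples from the fit of 12 libraries are the condensin genes barr, by 1.04, 0.78 and 0.95, and SMC2, by 1.01, 0.97 and 1.22, then pim (securin), by 0.79, 1.18 and 0.92, and thr, by 0.79, 0.73 and 0.98. Feo fell by 0.32 and 0.50 in the double knockdowns and had 0.03 in BEAF-32 RNAi cells. The difference between lists was not tested.

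Positions of the replication genes were set beside the TADs and loops of each knockdown, called by the authors after merging the Hi-C replicates of a group. Their start sites lay within 2 kb of a TAD border for 13 of 35 genes (37.1%, 95% Wilson interval 23.2 to 53.7) in BEAF-32 RNAi, 8 (22.9%, 12.1 to 39.0) in Cp190/Chro RNAi and 4 (11.4%, 4.54 to 26) in BEAF-32/Dref RNAi cells. Among tested genes with a position these shares were 25.7%, 20.6% and 9.43%. Near a border in all 3 lists were Gnf1 (0.054 kb), Mcm7 (0.221 kb), dup (0.588 kb) and DNApol-alpha180 (0.722 kb), 11.4% of the replication genes beside 7.25% of all genes. Psf3, Mcm10, RfC38 and DNApol-alpha50 lay 0.017, 0.096, 0.273 and 1.21 kb from a border in the first 2 lists. In BEAF-32/Dref RNAi cells they were 48, 35.1, 39.4 and 20.9 kb from one, in the list with the fewest genes near a border. The lists cover knockdowns only, so the borders of WT cells are not shown.

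A loop anchor lay at the promoter of 4 genes in BEAF-32 RNAi, 9 in Cp190/Chro RNAi and 2 in BEAF-32/Dref RNAi cells, 11.4%, 25.7% and 5.71% of 35 genes, beside 5.28%, 7.95% and 3.34% of all genes. The 9 were Mcm2, Orc5, Psf1, RnrL, DNApol-alpha73, DNApol-alpha60, DNApol-alpha50, DNApol-delta and Gnf1. Gnf1 had an anchor in all 3 lists, with up to 37, 87 and 39 observed contacts, and Mcm2 in the first 2, with 54 and 126. Each list is 1 merged map, so these shares and contacts have no replicate check, and contacts of different maps are not scaled to each other. The maps also differ in sequencing depth, whose part in the numbers of borders and loops was not tested.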

How the data were processed

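Poly(A) RNA was sequenced in 12 libraries. The deposited files hold raw counts per gene from HTSeq, made by the authors after trimming (Trimmomatic 0.39), alignment to dm6 (TopHat2 2.1.2, which uses Bowtie2 2.3.4.1) and removal of duplicates (Picard). TAD borders with a separation score and loops with an observed contact signal were called by the authors on 2 merged Hi-C replicates and deposited. HTSeq lines that are no genes (39.4 to 44.1% of reads at no feature, 0.486 to 0.598% at more than 1, 16.0 to 29.5% not unique) were left out.

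Counts of genes with at least 10 counts in total were fitted with edgeR 4.0.16 in R 4.3.3, with TMM scaling over all 12 libraries, and 6 contrasts were tested by the quasi-likelihood F test with Benjamini-Hochberg adjustment over all genes at 0.05. The test was tried on simulated data. Each standard error is the size of the log2 fold change divided by the root of its F value. Alternatives were DESeq2 1.42.0, other scaling, filters, a replicate block and leaving out libraries. Leaving out BEAF-32 RNAi replicate 3 where that group was not compared was added after the data were seen. Same-numbered libraries did not deviate together (18 pairs, r = -0.17 to 0.07, 0 over 0.1).

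Members, lists and motifs were chosen with earlier results of these data known. Values per library are given for genes called in all 3 comparisons, the 6 largest folds, genes called between knockdowns, PCNA, DNApol-alpha180, RnrL and RnrS, and other lists name at most 3 genes a direction, those with the lowest p. Positions and sequences are from RefSeq (dm6). Of the 35 genes found, 25 matched by symbol and 10 by synonym. Intervals cover counting error only.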

Additional observations from a re-analysis of the deposited data

How the results depend on the processing

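Under the alternatives 123 counts of replication genes stayed within 1.5 times the reported count and 27 did not, and no named result reversed. With 1 library left out in turn, falls against WT numbered 16 to 28 in BEAF-32 RNAi, 2 to 30 in Cp190/Chro RNAi and 12 to 31 in BEAF-32/Dref RNAi, and rises in BEAF-32 RNAi 0 to 1. BEAF-32/Dref RNAi against BEAF-32 RNAi gave 0 to 4 higher and 0 to 15 lower, Cp190/Chro RNAi against BEAF-32 RNAi 0 to 7 higher and 0 to 3 lower, and BEAF-32/Dref RNAi against Cp190/Chro RNAi 0 to 20 lower. The upper ends without BEAF-32 RNAi replicate 3 stand beside the results.

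In a fit of only the groups compared, falls against WT were 3 in BEAF-32 RNAi and 30 in Cp190/Chro RNAi, rises in BEAF-32 RNAi were 0, BEAF-32/Dref RNAi against Cp190/Chro RNAi gave 17 lower, and Cp190/Chro RNAi against BEAF-32 RNAi gave 0 higher. With no filter on low counts, 0 rose in BEAF-32 RNAi. DESeq2 called 1 higher between BEAF-32/Dref RNAi and BEAF-32 RNAi and 2 higher between Cp190/Chro RNAi and BEAF-32 RNAi. The cause was not tested. The replicate block gave 22, 8 and 22 falls and 1 rise in each knockdown against WT. Replicate numbers mark no shared sample in the sources used here.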
